A study of Mus musculus with 2 samples.

Results

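The data describe the chromatin boundaries, which separate regions that preferentially contact themselves, around 7 genes that carry the odorant signal inside mature olfactory sensory neurons. The genes were chosen by name: Gnal, Gnb1 and Gng13 for the G protein, Adcy3 for the cyclase, Ric8b for the G protein's folding factor, and Pde1c and Pde4a for the enzymes that break down cyclic AMP. All 7 were found among the 21755 protein-coding genes of GENCODE mouse release 21 on chromosomes 1 to 19 and X. In situ Hi-C records which stretches of DNA are neighbours in the nucleus by cutting fixed chromatin and ligating nearby ends. It was made in 1 group of 2 biological replicates, from 3000000 and 1500000 mature olfactory sensory neurons of adult OMP-GFP mice of the strain 129P2/OlaHsd and of mixed sex, which were collected by FACS from olfactory epithelium and received no treatment. The green reporter marks cells that express the olfactory marker protein, and a boundary list holds no expression with which that sort could be checked.

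The authors pooled both replicates into 1 contact map on GRCm38 and called 8058 boundaries on it, each a 5 kb interval with a strength (the authors' score, whose scale is not given in the sources used here) and a class. Scores of 0.2 to 0.5 are Weak and higher ones Strong. A single list from a pooled map has no spread between replicates, so every value below is a description without a test. Contact depth is unknown here. The list held 4092 Strong boundaries (50.8%), its median score was 0.509, and the median spacing of adjacent boundaries was 260 kb. The members are set beside all protein-coding genes, and their boundaries and domains beside all boundaries and intervals.

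In an olfactory neuron an odorant receptor activates the G protein Golf, whose alpha subunit is the product of Gnal and whose beta and gamma subunits include the products of Gnb1 and Gng13. The freed alpha subunit switches on Adcy3, the adenylyl cyclase of the olfactory cilia, and the cyclic AMP it makes opens a cation channel. Ric8b is a chaperone and exchange factor that keeps the Golf alpha subunit folded and abundant. Pde1c, a calcium- and calmodulin-dependent phosphodiesterase found in the cilia, and Pde4a, a cyclic-AMP-specific phosphodiesterase of the dendrite and cell body, remove the signal. CTCF is a zinc finger protein that halts loop-extruding cohesin at many boundaries.

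The sequences below are the exact matches to the CTCF core consensus that lay within 20 kb of a boundary beside a member. They are shown because the file resolves boundaries to 5 kb only, and counted between bins these short elements lay 5 to 20 kb from the boundary, none inside it. Each is given in its own 5′ to 3′ direction from GRCm38.p6, with the 14 bases of the core in capitals and 8 bases on either side.
Gnb1, upstream boundary, chr4:155481551-155481564, plus strand, intergenic: cttatttcCCACCAGGTGGCGCtcgagcac
Gnb1, upstream boundary, chr4:155485251-155485264, minus strand, intergenic: ctcttttcCCAGCAGATGGCACcctgggac
Gng13, upstream boundary, chr17:25698625-25698638, minus strand, lincRNA intron: taccatggCCACTAGATGGCGCttcagacc
Ric8b, upstream boundary, chr10:84438202-84438215, minus strand, Nuak1 intron: cctcatggCCACTAGGGGGCGCccagagaa
Ric8b, boundary at the 3′ end, chr10:85013629-85013642, plus strand, Ric8b intron: tcttctgcCCAGCAGGTGGCAGttcctttc
Pde1c, boundary inside the gene, chr6:56481062-56481075, plus strand, Pde1c intron: caaaatgaCCAGCAGGGGGCGCtgctattg
Pde4a, upstream boundary, chr9:21137411-21137424, minus strand, Cdc37 exon: gtgtctatCCACCAGAGGGCAGgagtgagc
Pde4a, upstream boundary, chr9:21169046-21169059, minus strand, Pde4a intron: ctcgcagtCCAGCAGAGGGCGCtcccagag
A further match, beside the boundary inside Gnal, is given below by position alone.

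The 7 genes differed widely in how close their start lay to a boundary. The distance, counted between 5 kb bins from the 5′ end of the gene record to the nearest boundary, was 5 kb for Gng13, 15 kb for Gnal, 20 kb for Pde4a, 25 kb for Gnb1, 45 kb for Adcy3, 95 kb for Pde1c and 100 kb for Ric8b. The median was 25 kb over the 7 members and 60 kb over all protein-coding genes. A boundary lay within 20 kb of the start for 3 of 7 members (Gng13, Gnal and Pde4a), and for 21.2% of all protein-coding genes. All 3 of these boundaries were Strong, and a Strong boundary lay as close for 13.7% of all protein-coding genes. Gnal also has later coding starts, which lay 30 kb from the same boundary and so outside this window. Pde4a lay at the limit of this window and Gnb1 was the next gene outside it, so the count was 1 within 10 kb and 5 within 50 kb, where the shares over all protein-coding genes were 12.8% and 44.9%.

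**Figure D1:**
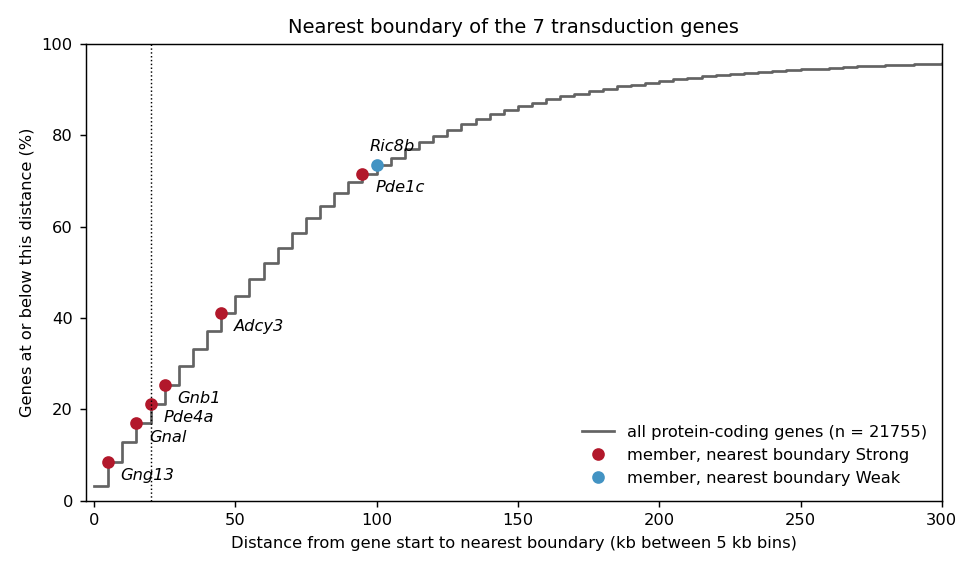
Distance from the start of each member to its nearest boundary (horizontal axis, kb between 5 kb bins) against the share of protein-coding genes at or below that distance (vertical axis, percent). The grey curve covers 21755 genes and is drawn up to 300 kb, the dotted line marks 20 kb, and the points spread along the curve from Gng13 at 5 kb to Ric8b at 100 kb.

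The nearest boundary was Strong for 6 of 7 members, against 64.3% of all protein-coding genes. In order of strength, the nearest boundaries scored 2.31 at Gnal, 1.28 at Adcy3, 1.15 at Gnb1, 1.10 at Pde1c, 1.03 at Gng13, 0.809 at Pde4a and 0.417 at Ric8b. The median was 1.10 over the 7 members and 0.670 over all protein-coding genes. The score at Gnal stands apart, with rank 132 of 8058 (the strongest 1.64% of the list). The 4 scores from 1.03 to 1.28 have ranks from 1090 to 1692, and no error is known that would tell these neighbours apart. The 14 boundaries that flank the starts of the 7 genes comprised 13 Strong and 1 Weak, and their median score was 0.969. Over all boundaries 50.8% were Strong and the median was 0.509. The 14 were picked for flanking a coding start, so all boundaries are not a like background. No conclusion about the members is drawn from this difference.

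**Figure D2:**
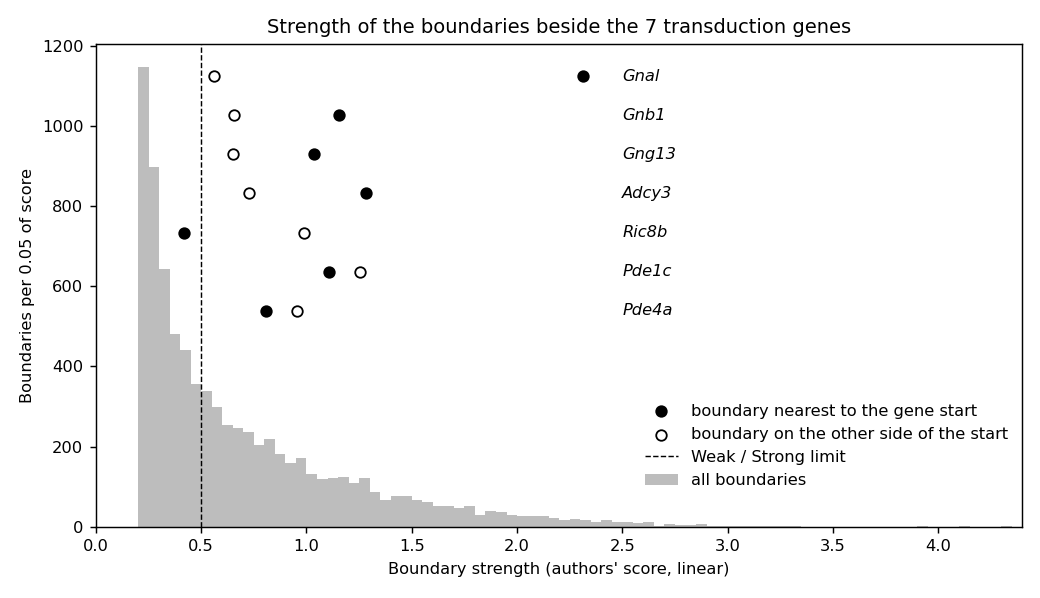
Strength of the boundaries on either side of each member's start (horizontal axis, authors' score) over the distribution of all 8058 boundaries (grey bars, boundaries per 0.05 of score). Filled points are the boundary nearest to the start and open points the one on the other side; 13 of the 14 lie right of the dashed limit of 0.5 between Weak and Strong, and Gnal's reaches 2.31.

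The interval between the boundaries on either side of the start, here called the domain, was 115 kb for Gnb1, 120 kb for Gng13, 165 kb for Adcy3, 245 kb for Pde1c, 400 kb for Pde4a, 570 kb for Ric8b and 580 kb for Gnal. The median over the members was 245 kb, against 275 kb for the domains of all protein-coding genes and 260 kb over all 8038 intervals between adjacent boundaries. Of all intervals, 4.38% were as short as that of Gnb1 or shorter and 5.49% as short as that of Gng13, while 91.1% were no longer than that of Gnal and 90.8% no longer than that of Ric8b. The same shares were 20.3% for Adcy3, 46.5% for Pde1c and 78.0% for Pde4a. Among the domains of protein-coding genes they were 3.68% for Gnb1, 4.38% for Gng13, 88.6% for Gnal and 88.3% for Ric8b. All these sizes refer to the start of the gene record. The later coding starts lay in a different interval, of 170 kb for Gnal and 525 kb for Pde1c. Within 500 kb of the start there were 3 to 6 boundaries per member, with a median of 4, which is also the median over all protein-coding genes.

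**Figure D3:**
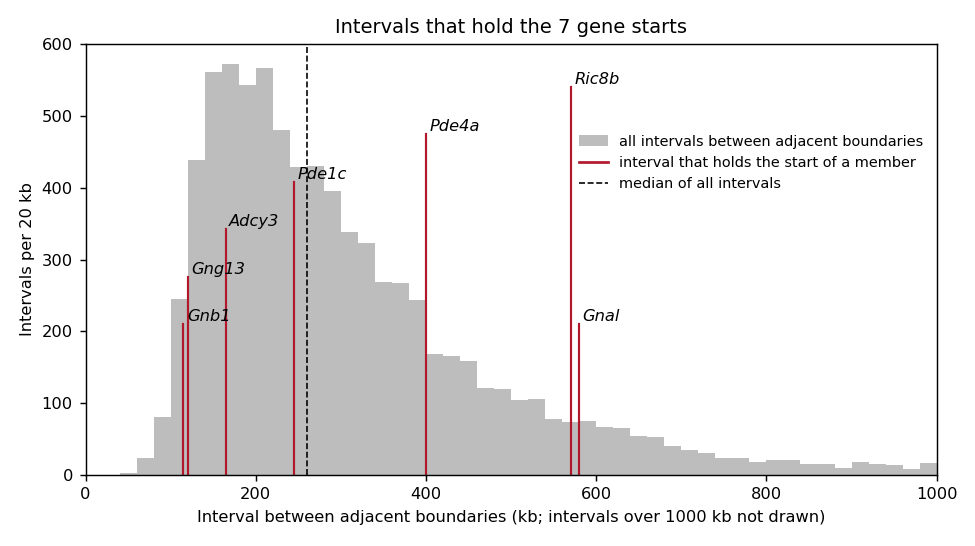
Size of the interval between adjacent boundaries (horizontal axis, kb) for all intervals (grey bars, intervals per 20 kb; those over 1000 kb are not drawn) and for the intervals that hold the start of a member (red lines, whose heights only separate the labels). The dashed line is the median of all intervals, 260 kb, with Gnb1, Gng13, Adcy3 and Pde1c to its left and Pde4a, Ric8b and Gnal to its right.

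Gnal, the alpha subunit of Golf (ENSMUSG00000024524.17, chromosome 18 at 67088216 to 67226792, plus strand, 139 kb long), was crossed by the strongest boundary of the set. That boundary, at 67100001 to 67105000 with a score of 2.31, lay in the first intron of the longest transcript, an intron of 45.3 kb, and its near edge was 11785 bases from the start of the gene. The annotation gives 8 coding transcripts, of which 4 begin at the gene start and 4 begin 44.8 to 45.5 kb further on. The boundary lay 15 kb downstream of the start bin of the first 4 and 30 kb upstream of that of the other 4, so the start sites fell on opposite sides of it. Gnal-201, the longest transcript before the boundary, encodes 448 codons, and Gnal-202 and Gnal-204, beyond it, encode 381 codons each. The boundary list does not show which of these starts is used in the sorted neurons. The side with the gene start is a domain of 580 kb that reaches upstream to a Strong boundary of 0.561 and held 1 other coding start, that of Mc4r, the melanocortin 4 receptor, 227.7 kb upstream on the opposite strand. The other side, of 170 kb, held 89.7% of the gene body and the coding starts of Chmp1b, a subunit of the membrane-scission machinery ESCRT-III, and Mppe1, and ended at a Strong boundary of 0.938 past the 3′ end. An exact CTCF core match stood at 67116104 to 67116117 on the plus strand, inside the same intron, 15 kb from the boundary and between it and the second set of starts.

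Pde1c, the calcium-dependent phosphodiesterase of the cilia (ENSMUSG00000004347.16, chromosome 6 at 56069804 to 56569103, minus strand, 499 kb long), was the other gene whose coding starts lay on both sides of a boundary. The boundary at 56470001 to 56475000, with a score of 1.10 and rank 1519, lay in the second intron of Pde1c-209, 95 kb downstream of the gene start. Pde1c-209, with 766 codons, is the sole transcript of 9 that begins before it. The other 8 begin 199 to 207 kb from the gene start and thus 105 to 110 kb beyond the boundary, and they encode 603 to 706 codons. The domain with the gene start measured 245 kb, ran upstream to a boundary of 1.26 inside Avl9 and also held the starts of Lsm5, which encodes a protein of RNA splicing and decay, and Avl9. The interval beyond the boundary measured 525 kb, held 80.7% of the gene body and, apart from the later Pde1c starts, the coding start of Ppp1r17 alone. The CTCF core match of the boundary inside Pde1c, printed above, lay 10 kb from it in the same intron.

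Coding starts on both sides of a boundary were found in 2 of 7 members and in 2.64% of all protein-coding genes (1.54% with Strong boundaries, as both of these are), a count made after the positions had been seen. It was 8.76% of the genes whose coding starts fall in 2 or more bins, and went up with gene length. Among genes of 100 to 200 kb whose coding starts fall in 2 or more bins, the class of Gnal, it was 15.5%, and among those of 200 to 500 kb, the class of Pde1c, it was 37.9%, and among those of 500 kb or more 66.9%. Of the 672 boundaries in the list that divide the coding starts of a gene, with a median score of 0.514, that of Gnal was number 7 by strength and that of Pde1c number 106. The 5 members other than Gnal and Pde1c had all their coding starts on 1 side. Pde4a has 3 starts up to 31.0 kb apart and Gnb1 has 6 starts in 3 bins, in each case within a single domain.

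**Figure D4:**
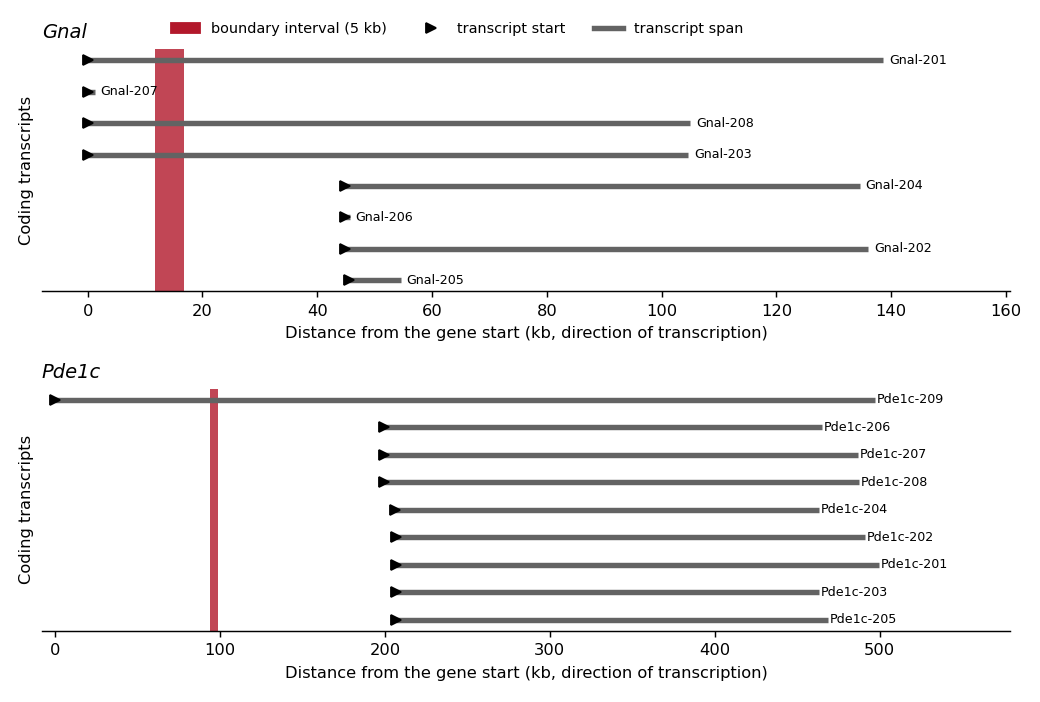
Coding transcripts of Gnal (8) and Pde1c (9) drawn from the gene start in the direction of transcription (horizontal axis, kb), with arrowheads at transcript starts and the boundary interval of 5 kb in red. In Gnal 4 starts lie before and 4 beyond the boundary, and in Pde1c 1 lies before and 8 beyond it.

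Gnb1, the beta subunit (ENSMUSG00000029064.15, chromosome 4 at 155491361 to 155559269, plus strand, 67.9 kb long), lay whole inside the smallest domain of the set. Its 115 kb ran between a boundary of 1.15 at 155465001 to 155470000, 25 kb upstream of the start, and one of 0.656 at 155580001 to 155585000, 25 kb past the 3′ end. The gene body filled 59.1% of this domain. Tmem52, whose start lies in the bin of the upstream boundary, and Nadk, the gene of NAD kinase, 71 kb downstream of the Gnb1 start, shared it, and the downstream boundary lay in Nadk. Both CTCF core matches of the upstream boundary, printed above, lay between that boundary and the Gnb1 start, at 15 and 20 kb from the boundary and on opposite strands.

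Adcy3, the cyclase (ENSMUSG00000020654.15, chromosome 12 at 4133103 to 4213525, plus strand, 80.4 kb long), had a similar setting, without a boundary in its body. Its domain of 165 kb began at a boundary of 1.28 at 4085001 to 4090000, 45 kb upstream and overlapping an exon of Dnajc27. The domain ended at a boundary of 0.728 at 4250001 to 4255000, 40 kb past the 3′ end and in Ncoa1, a nuclear receptor coactivator gene. The gene body filled 48.7% of it. Ptrhd1 and Cenpo, the gene of a centromere protein, were the other coding genes that start in it. Both start 101 kb downstream of the Adcy3 start, on opposite strands. Neither boundary had an exact CTCF core match within 20 kb.

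Gng13, the gamma subunit (ENSMUSG00000025739.13, chromosome 17 at 25717171 to 25719406, plus strand, 2.24 kb long), had the start closest to a boundary. The edge of the boundary at 25710001 to 25715000 (score 1.03) lay 2171 bases upstream of the start, in sequence that overlaps no annotated gene. The domain of 120 kb ended at a boundary of 0.653 that covers the start of Stub1, a ubiquitin ligase gene. It was crowded, with 15 coding starts, against a median of 2 and an upper quartile of 4 among intervals that hold any. That is 12.5 per 100 kb, beside 0.852 per 100 kb of all intervals together. Chtf18, Rpusd1, Mslnl, Msln (mesothelin) and Narfl were the nearest of the 14 other genes, at 10.2 to 56.6 kb. The promoter next to the boundary, from 250 bases before to 50 after the more upstream of the gene's RefSeq starts, had a GC content of 62.0%, against a median of 52.7% over the 32851 RefSeq promoters of the table, in which 6 of the 7 members have entries. The promoter of the gene's other RefSeq start, further downstream, had a GC content of 72.0%. The upstream promoter is printed here because its start is the one nearest to a boundary. Its sequence, chr17:25716922-25717221 of GRCm38.p6, plus strand, is credited to RefSeq.
Gng13 promoter: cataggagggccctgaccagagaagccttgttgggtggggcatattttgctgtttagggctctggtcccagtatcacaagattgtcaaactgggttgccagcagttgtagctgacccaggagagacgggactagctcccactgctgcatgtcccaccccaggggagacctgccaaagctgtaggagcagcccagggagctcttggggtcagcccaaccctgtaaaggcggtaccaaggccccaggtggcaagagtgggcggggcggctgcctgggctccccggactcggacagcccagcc

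Ric8b, the Golf chaperone (ENSMUSG00000035620.15, chromosome 10 at 84917616 to 85018337, plus strand, 101 kb long), had the weakest and most distant nearest boundary. It scored 0.417 (Weak, rank 4725) and lay at 85015001 to 85020000. There it overlapped the last exon of both full-length coding transcripts and held the 3′ end of the gene. The domain of 570 kb held nearly the whole gene (99.2%) with Rfx4, a transcription factor gene, Polr3b, which encodes a subunit of RNA polymerase III, Tcp11l2 and Ckap4, all 161.6 to 383.6 kb upstream of the Ric8b start. It began at a Strong boundary of 0.986, 5 kb from the start of Nuak1. When Weak boundaries were left out, the nearest boundary of Ric8b lay 275 kb away and its domain grew to 745 kb, and the distances and domains of the other 6 genes stayed as they were.

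Pde4a, the phosphodiesterase of the cell body (ENSMUSG00000032177.17, chromosome 9 at 21165714 to 21213248, plus strand, 47.5 kb long), stood near the upstream edge of a large domain. Its upstream boundary, at 21145001 to 21150000 with a score of 0.809, lay 20 kb away in the bin of the start of Cdc37, an Hsp90 co-chaperone gene on the opposite strand. The domain ran 400 kb to a boundary of 0.953 in the bin of the start of Carm1, an arginine methyltransferase gene, and the gene filled 11.9% of it. It held the starts of 12 other coding genes. Nearest were those of Keap1, the sensor of oxidative stress, S1pr5, Atg4d, Kri1 and Cdkn2d, 73.6 to 125.7 kb downstream. Pde4a was the sole member with an olfactory receptor gene within 1 Mb, Olfr18 at 830 kb.

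**Figure D5:**
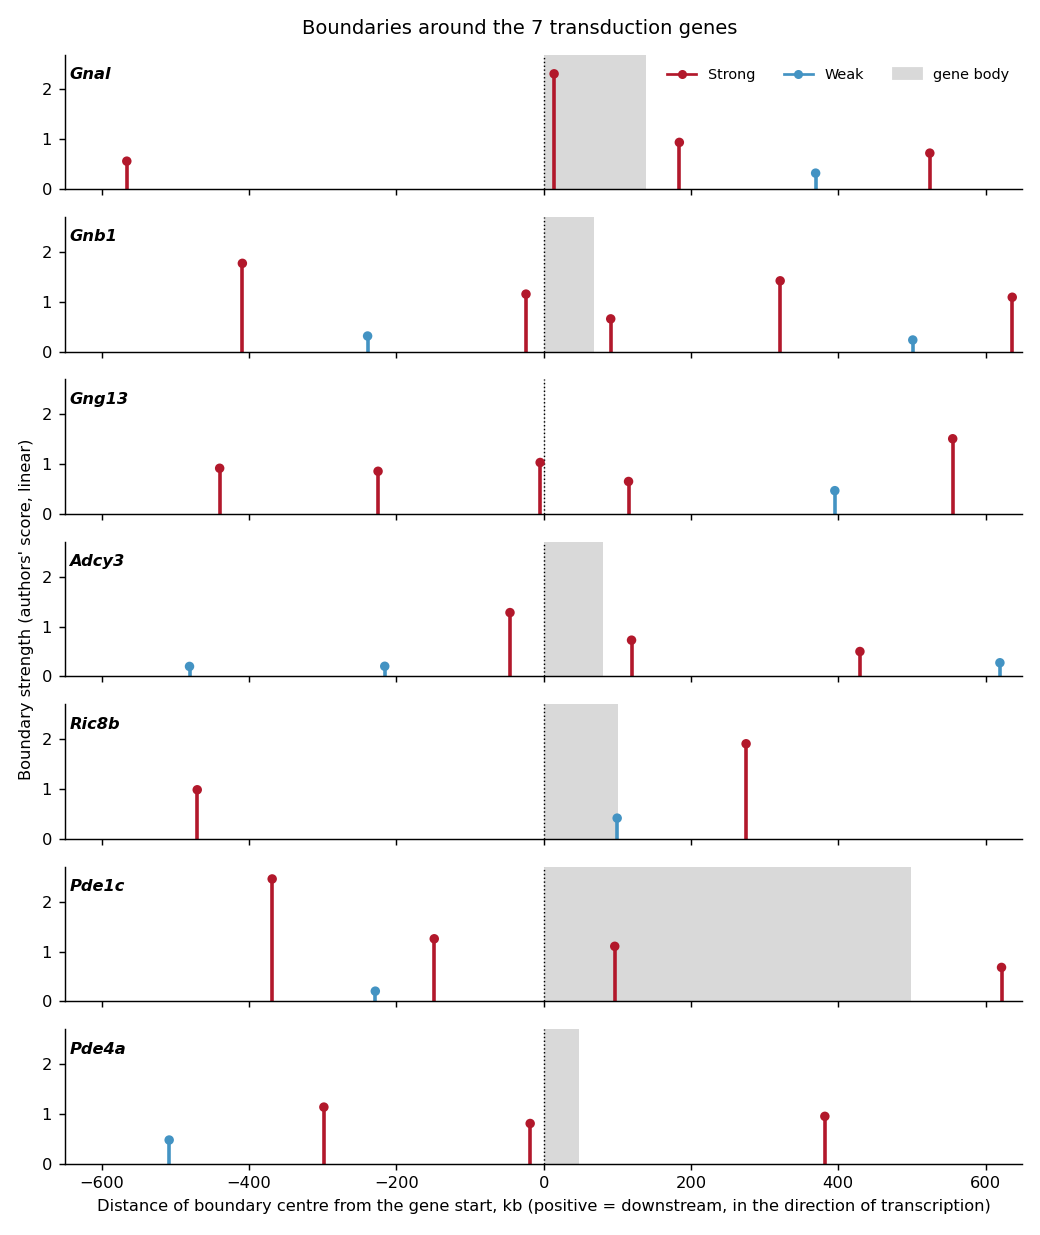
Boundaries around each member, with distance from the gene start in the direction of transcription (horizontal axis, kb) and strength (vertical axis, authors' score). Red marks Strong and blue Weak boundaries, grey the gene body; the boundary inside Gnal is the tallest beside any of the 7 starts, and Gnb1, Gng13, Adcy3 and Pde4a lie whole between a pair of Strong boundaries.

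A boundary stood inside the gene body in 3 of 7 members (Gnal, Ric8b and Pde1c), against 15.9% of all protein-coding genes. These were the 3 longest members, and the share went up with length over all protein-coding genes. It was 37% for genes of 100 to 200 kb (Gnal and Ric8b) and 62% for genes of 200 to 500 kb (Pde1c, at 499 kb at the upper end of its class), and 88.7% for genes of 500 kb or more. The nearest boundary lay upstream of the start for 4 of 7 members (57.1%), close to the 50.5% of all protein-coding genes. These 4 were the members without a boundary inside.

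Of the 14 flanking boundaries, 11 had a coding start within 20 kb, against 37.6% of all boundaries, and 4 had one in the same bin (Tmem52, Stub1, Cdc37 and Carm1), against 7.48% of all boundaries. The starts within 20 kb include the member's own at Gnal, Gng13 and Pde4a. The 14 were picked for flanking a coding gene's start, whereas 27.1% of all intervals hold no coding start. The shares over all boundaries are therefore not a like background, and no conclusion about the members is drawn from these counts. GC content over 25 kb ran from 39.9% at the boundary inside Pde1c to 55.0% at the downstream boundary of Gng13. The median was 46.5%, against 42.4% over all boundaries. Whether base composition has a part in the strengths was not tested.

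An exact CTCF core match lay within 20 kb of 7 of the 14 flanking boundaries, against 21.9% of all boundaries. Here too, all boundaries are not a like background for these 14. Of the 14, 13 were Strong and 6 of these had a match, against 30.3% of all Strong boundaries. By gene, the nearest boundary had a match in 6 of 7 members, all but Adcy3. The share was 27.8% of all protein-coding genes and 31.7% of those whose nearest boundary is Strong. Among the other 7 flanking boundaries, 1 had a match. Within 10 kb, 4 of the 14 boundaries had a match, against 15% of all boundaries, and the nearest boundary had one in 3 of 7 members (Ric8b, Pde1c and Pde4a), against 19.2% of all protein-coding genes. Of the 9 matches, 6 read away from their boundary (5′ to 3′) and 3 toward it. The share reading away was 66.7%, beside 67.3% over the whole list (2151 matches with a boundary in that window). A match is a run of letters and not a measured binding site.

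The list of other transduction genes held 20 channel, exchanger, kinase, calmodulin and accessory genes, not all of them part of the Golf pathway itself. A boundary lay within 20 kb of the start in 4 cases (Calm2, Calm3, Camk2d and Pde2a), against the 21.2% of all protein-coding genes. The strongest were at Pde2a, a cGMP-stimulated phosphodiesterase (0.975, 10 kb), Camk2d, a calmodulin-dependent kinase (0.801, 5 kb), and Calm3, a calmodulin gene (0.762, in the bin of the start). Farthest from any boundary were Gucy2d, the receptor guanylyl cyclase of a separate class of olfactory neurons (135 kb), Reep1, a receptor-trafficking gene (125 kb), and Cnga4, a subunit of the olfactory cation channel (115 kb). The median distance of this list was 52.5 kb, and the nearest boundary was Strong for 13 of 20.

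The 45 paralogs of the members, genes of the same families, had a boundary within 20 kb in 7 cases (15.6%), a median distance of 65 kb and a Strong nearest boundary in 29 cases. The strongest within 20 kb stood at the alpha subunit gene Gna12 (1.47, 20 kb), the beta subunit gene Gnb3 (0.903, 10 kb) and the cyclase gene Adcy4 (0.531, 20 kb). The cyclase gene Adcy2 (355 kb), the phosphodiesterase gene Pde4c (210 kb) and the cyclase gene Adcy9 (175 kb) lay farthest out. Among the 15 other alpha subunit genes the nearest boundary scored a median of 0.553, against 2.31 at Gnal, and the highest score, 2.23 at 120 kb from Gnai2 and 160 kb from Gnat1, belonged to 1 boundary that both share. Coding starts on both sides of a boundary were found in 3 of the 45 (Gnas, Pde4b and Pde4d) and in 1 of the 20 other transduction genes (Camk2d), all named after their values were seen, against the 2.64% of all protein-coding genes. Length differed among them, with 1504 kb for Pde4d, 520 kb for Pde4b, 250 kb for Camk2d and 62.4 kb for Gnas. Among genes of these length classes whose coding starts fall in 2 or more bins, the share was 66.9% (Pde4d and Pde4b), 37.9% (Camk2d) and 6.91% (Gnas). Gnas, the widely expressed stimulatory alpha subunit and the closest relative of Gnal, was divided by a boundary of 0.687, 30 kb downstream of its gene start.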

How the data were processed

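In situ Hi-C of 2 biological replicates of 1 group was analysed. The authors combined the replicates into 1 GRCm38 contact matrix before calling boundaries on it, per the series' design text. Which caller, window and aligner they used is not stated in the labels. Their deposited list gives, per 5 kb interval, a class and a strength, a score without a stated scale, used here only to rank boundaries within the list. Contact depth is unknown here.

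Distances were counted between 5 kb bins, from the 5′ end of the GENCODE release 21 gene record. A boundary in the bin of a start was taken as the upstream edge of that gene's domain. Boundaries on either side of a start or inside a gene count as flanking. CTCF matches are exact, on either strand of GRCm38.p6. The analysis used Python 3.11.15, pandas 2.3.3 and numpy 2.4.6, and the distance functions were tested on simulated data. No p-value was computed, since the pooled list has no replicate error.

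The members and lists were chosen with earlier results of these data known. Named genes are the members, the coding gene nearest to each flanking boundary within 20 kb, up to 5 genes of the same domain, and, per list, up to 3 with the strongest boundary within 20 kb and up to 3 farthest from one. Genes named by sharing a domain stand in for a likeness of pattern, which 1 pooled map does not allow. Alternatives were Strong boundaries or the top 25% of scores, windows of 10 and 50 kb, distances in bases and other motif rules. A further alternative took the coding start of each gene that lies nearest to a boundary, which can only keep or shorten a distance.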

Additional observations from a re-analysis of the deposited data

How the results depend on the processing

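Of 38 alternative values of the counts and medians, 23 stayed equal or, for counts, within 1.5 times, and 15 moved, none of them with a replicate error to set them against. The 3 members with a boundary within 20 kb became 1 within 10 kb and 5 within 50 kb. For the other transduction genes, 4 became 10 within 50 kb and 1 with the top 25% of scores. For the paralogs, 7 became 3 within 10 kb, 19 within 50 kb, 3 with Strong boundaries and 1 with the top 25%. With the top 25% of scores the median distance of the members was 45 kb and their median domain 680 kb, by construction from fewer boundaries. Measured in bases to the interval's edge the median distance was 21.4 kb, and between facing edges the median domain was 240 kb. With boundaries over 20 kb from both gene ends required, 1 member (Pde1c) kept one inside. CTCF matches stood near 4 of the 14 flanking boundaries within 10 kb and near 13 with 1 mismatch allowed, where 76.3% of all boundaries had one. The members divided by a boundary, 2, stayed 2 under 4 alternatives chosen after seeing the data. Of 21 values of single members, 2 moved, both of Ric8b with Strong boundaries only. The start-site alternative could not lengthen a distance, so its unchanged values do not cover the later starts of Gnal and Pde1c. No paired analysis was possible because the list comes from the pooled map of a single group, and for the same reason no replicate could be left out. The number of contacts behind the map is unknown here and bounds how faint a boundary could be detected.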

Other observations

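Several paralogs lie next to each other and share a boundary (all named after their values were seen). Gng8, a gamma subunit gene, started 30 kb from the boundary of 0.762 that covers the start of Calm3, a calmodulin gene of the transduction list, and both genes sat in a domain of 120 kb. Gna11 and Gna15, neighbouring alpha subunit genes, started 50 and 25 kb from 1 boundary of 0.553 in a domain of 1115 kb. Gngt1 and Gng11 started 165 and 155 kb from a Weak boundary of 0.329. Such genes are not independent within the paralog list.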
